A study of Homo sapiens with 8 samples.

Results

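The H3K27me3 islands of chromosome 13 were described in 2 human lymphoma B-cell lines. LY19Y646F constitutively expresses EZH2-Y646F from a CMV promoter, and LY19WT is labelled as EZH2 wild type. Both were untreated cultures, given as passages 10 to 15. Each line had 3 ChIP libraries, made with 1 monoclonal antibody against H3K27me3, and 1 input library, and the ChIP libraries of a line were merged before islands were called. The members are the islands of both lists on chromosome 13 in hg19 coordinates, leaving out every island that touches a stretch of 1.8 Mb from 101400001 on. This gave 1193 LY19Y646F and 1234 LY19WT islands, or 2427 of 105576 islands in all, and left out 3 LY19Y646F and 82 LY19WT islands of the chromosome. The chromosome was chosen by measured values, its coverage and its LY19WT input density, so these are given as a description. With 1 merged list per line there was no spread between replicates, and no difference between the lines was tested.

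H3K27me3 is the repressive trimethyl mark on histone H3 that EZH2, the catalytic subunit of Polycomb repressive complex 2, writes and that the complex can bind and spread. It forms narrow islands around silenced promoters and broad domains over silent, gene-poor chromatin. The Y646F change lies in the SET domain of EZH2, recurs in germinal-centre B-cell lymphoma and shifts the enzyme's preference towards nucleosomes that already carry methyl groups. Chromosome 13 is an acrocentric chromosome with long gene-poor stretches. In the RefSeq table on GRCh38.p14 it had 338 protein-coding genes, or 2.96 per Mb, the lowest density of the 22 autosomes. The next lowest was 3.37 per Mb on chromosome 18. The length used for chromosome 13 takes in the short arm, which held no island of either list. The rank rests on that length and was not computed without the short arm.

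Genes of development, of blood cells and of the cell cycle lie along the whole chromosome. In gene order from the centromere, that table places the ParaHox homeobox genes GSX1, PDX1 and CDX2 at positions 54 to 56 of its protein-coding genes, followed by FLT3, a receptor tyrosine kinase of blood progenitors, at 58 and FOXO1, a transcription factor of B-cell development, at 112. RB1, which encodes the retinoblastoma cell cycle inhibitor, stands at 157. Genes of neuronal adhesion come next, with the protocadherins PCDH8, PCDH17, PCDH20 and PCDH9 at 197, 205, 208 and 211. The sensory neuron factor POU4F1 stands at 234, the synaptic genes SLITRK1, SLITRK6 and SLITRK5 at 239, 240 and 243, and the glypicans GPC5 and GPC6, proteoglycans of the cell surface, at 244 and 245. Towards the telomere lie ZIC5 and ZIC2, zinc finger genes of the early nervous system, at 270 and 271, and SOX1, a neural progenitor factor, at 309. The islands are on hg19 and that table is on another build, so no gene was placed under an island, and the domains below are named by position.

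The lines had nearly equal numbers of islands on chromosome 13 but not equal widths. Islands of LY19Y646F covered 8.25 Mb, or 8.84% of the 93.3 Mb examined, and those of LY19WT covered 15.0 Mb, or 16.0%. Among 22 autosomes, chromosome 13 ranked 19 by coverage in each line, so it was among the more sparsely covered chromosomes of both. The median over the other 21 autosomes was 13.5% in LY19Y646F and 19.2% in LY19WT. Island width had a median of 5.6 kb with quartiles of 4.2 and 7.8 kb in LY19Y646F, and a median of 7.2 kb with quartiles of 4.2 and 12.8 kb in LY19WT. The LY19WT median was the widest of its 22 autosomes, where the others lay between 5.0 and 6.4 kb, while that of LY19Y646F ranked 16.

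The excess of covered length in LY19WT came from islands wider than 10 kb. Islands of up to 10 kb covered more in LY19Y646F, with 1.97 Mb in those of up to 5 kb and 3.46 Mb in those of over 5 to 10 kb, against 1.42 and 2.80 Mb in LY19WT. Between 20 and 50 kb the order was the other way, with 25 islands and 0.641 Mb in LY19Y646F and 141 islands and 4.23 Mb in LY19WT. Above 50 kb LY19Y646F had 1 island, 0.0838% of its islands on the chromosome, and LY19WT had 33, or 2.67%. Over all autosomes the shares of islands above 50 kb were 0.45% in LY19Y646F and 1.54% in LY19WT, so chromosome 13 lay below the autosomal share in LY19Y646F and above it in LY19WT. The 33 broad islands held 19.5% of the covered length of LY19WT on this chromosome, against 12.4% on the other autosomes together. When islands were joined across gaps of up to 5 kb, the numbers above 50 kb were 31 in LY19Y646F and 80 in LY19WT, so the contrast between 1 and 33 depends on how islands are split.

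**Figure D1:**
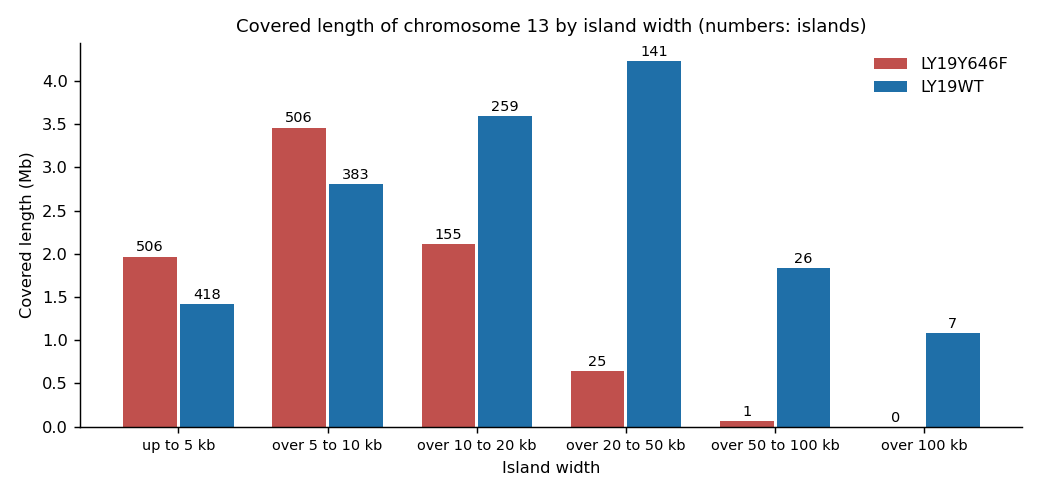
Covered length of chromosome 13 (Mb, vertical axis) by island width class (horizontal axis) in LY19Y646F (red) and LY19WT (blue), with the number of islands above each bar. LY19Y646F covers more in both classes up to 10 kb, and LY19WT covers more in each wider class, with 4.23 against 0.641 Mb between 20 and 50 kb.

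Coverage was uneven along the chromosome in both lines, and the stretches covered most were not the same. In bins of 5 Mb, LY19Y646F covered most from 110 to 115 Mb (32.1%) and from 25 to 30 Mb (28.4%), where LY19WT covered 24.2% and 23.2%. LY19WT covered most from 35 to 40 Mb (56.4%) and from 95 to 100 Mb (38.2%), where LY19Y646F covered 2.90% and 14.4%. The next 5 Mb to the telomeric side of the first LY19WT maximum ran the same way, with 12.0% in LY19Y646F and 26.7% in LY19WT from 40 to 45 Mb. From 45 to 50 Mb the order turned, with 125 islands and 17.3% in LY19Y646F against 28 islands and 4.58% in LY19WT. In all, 7 of 20 bins were covered more in LY19Y646F, 12 more in LY19WT, and 1 held no island in either. No least difference was set for this count. The first bin held 0.0544 Mb, and from 80 to 85 Mb the lines covered only 0.244% and 0.184%. From 85 to 90 Mb they covered 0% and 0.12%.

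Single bins of a smaller size differed further. In bins of 1 Mb, the highest LY19WT coverage was 88.5% from 39 to 40 Mb, where LY19Y646F covered 5.54%. The highest LY19Y646F coverage was 40.6% from 111 to 112 Mb, where LY19WT covered 29.1%. From 38 to 39 Mb LY19WT covered 72.7% and LY19Y646F had no coverage. From 30 to 31 Mb LY19Y646F covered 36.3% and LY19WT 12.6%. Across 91 bins of 1 Mb, coverage in the lines had a Spearman rho of 0.52, which ranked 11 of 22 autosomes. Bins of 1 chromosome share base composition, mappability and gene content, and are not independent.

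**Figure D2:**
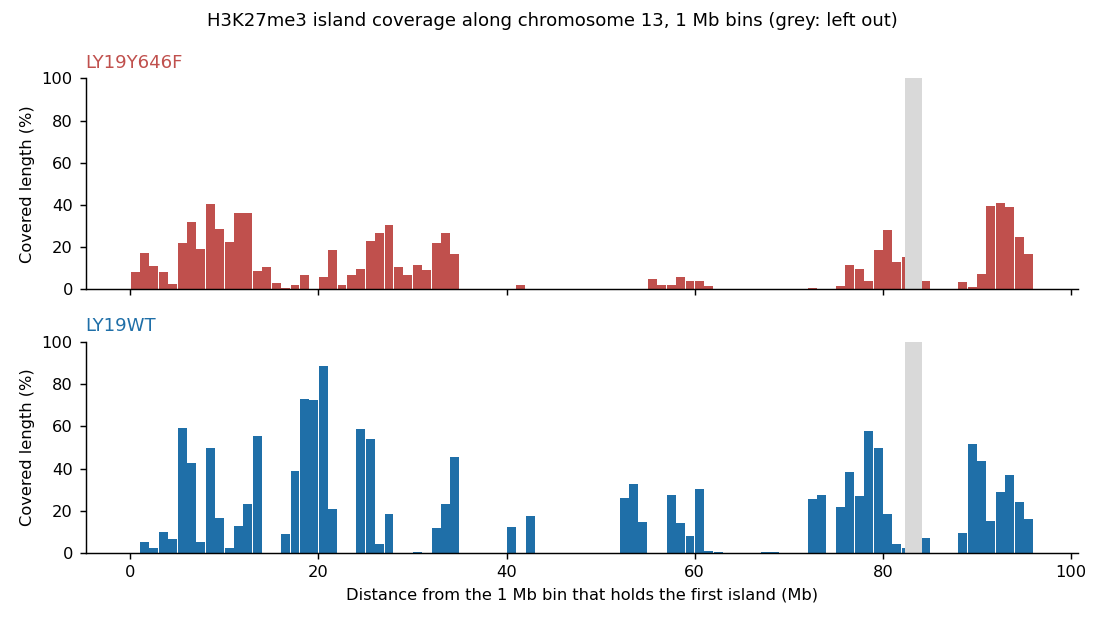
Share of each 1 Mb bin covered by islands (%, vertical axis) against distance along chromosome 13 from the bin that holds the first island (Mb, horizontal axis), with LY19Y646F above and LY19WT below and the left-out part in grey. LY19WT reaches 88.5% about 20 Mb along, where LY19Y646F covers 5.54%, and both panels are empty over long stretches in the middle.

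Long stretches in the middle of the chromosome held no island in either line. The longest ran for 9.22 Mb from 61983601 to 71203600, and the next for 5.62 Mb from 53951201 to 59571000 and for 4.70 Mb from 81667401 to 86371400. Of 931 windows of 100 kb, 445 (47.8%) held no island of either line, against 36.7% over all autosomes. Some stretches were empty in 1 line alone. The longest stretch without a LY19Y646F island ran for 13.3 Mb from 60894801 to 74188400, a stretch that held 131 LY19WT islands covering 6.87% of it. From 80766401 to 91793600 LY19Y646F had no island and LY19WT had 17, covering 0.700%. In the other direction, from 103397201 to 107864200, LY19Y646F had 7 islands covering 0.833% and LY19WT had none over 4.47 Mb. From 70 to 75 Mb LY19Y646F covered 0.928% with 9 islands and LY19WT 14.7%, and from 90 to 95 Mb LY19Y646F had 3 islands and LY19WT 74. The LY19WT islands of these bins had median widths of 6.0 and 6.3 kb, below the 7.2 kb of the chromosome. A stretch without islands can still carry the mark below the calling threshold.

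The broadest LY19WT domains clustered between 36 and 45 Mb, a stretch bounded after its values were seen. It held 17 of the 33 islands above 50 kb and 1.63 of their 2.91 Mb. The widest ran from 39874801 to 40132600, 257.8 kb with 24629 reads in ChIP, 3080 in input and a fold in the authors' list of 2.60, and LY19Y646F covered 2.17% of it with 1 island. In the same stretch lay an island of 144.6 kb from 39385801 to 39530400, with 14801 ChIP and 1712 input reads, of which LY19Y646F covered 14.2% with 5 islands. A domain of 132.0 kb from 37080801 to 37212800, with 11520 ChIP and 1563 input reads, held no LY19Y646F island. The others among the 5 widest lay nearer the centromere. One of 177.2 kb ran from 31999001 to 32176200 with a fold of 2.29, covered to 7.45% in LY19Y646F, and one of 135.4 kb from 32241601 to 32377000 with a fold of 2.69, covered to 9.01%.

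Most of the 33 broad LY19WT islands had little LY19Y646F coverage. Islands of LY19Y646F covered a median of 9.01% of them and at most 87.7%, against a median of 36.6% over the 893 LY19WT islands above 50 kb of all autosomes. That 9.01% is close to the 8.84% of the whole chromosome that LY19Y646F covered, which is below its median of 13.5% over the other autosomes. There was no LY19Y646F island in 10, against 18.9% of those 893. Coverage was under 10% in 17 including those 10, against 27.2%, and at least 50% in 6, against 41.3%. None of the 17 islands between 36 and 45 Mb was covered to more than 36.4%. The broad islands were dense in ChIP reads as well as wide, with a median of 87.9 reads per kb (range 69.3 to 112) and a median authors' fold of 2.39, against 59.5 reads per kb and 1.68 in the 1201 narrower LY19WT islands of the chromosome. Input relative to the autosomal median of LY19WT was 1.45 over the broad islands and 1.40 over the narrower ones, so the sets differed less in input than in ChIP density.

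**Figure D3:**
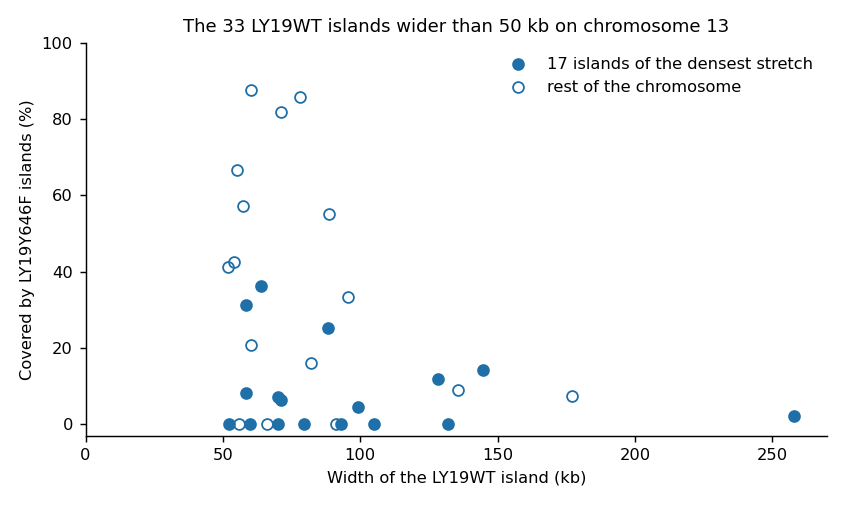
Share covered by LY19Y646F islands (%, vertical axis) against width (kb, horizontal axis) for each of the 33 LY19WT islands wider than 50 kb, filled for the 17 between 36 and 45 Mb and open for the rest of the chromosome. All 7 islands above 100 kb were covered to at most 14.2%, and the 6 covered to at least 50% lie outside the filled set.

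Windows of 100 kb separated stretches of 1 line from those of both. A difference of at least 50 percentage points of coverage in favour of LY19Y646F was found in 8 of 931 windows (0.859%), against 2.64% of windows over all autosomes. In favour of LY19WT it was found in 100 windows (10.7%), against 9.53%, a share near that of the autosomes. Coverage of at least 50% in both lines was found in 22 windows (2.36%), against 5% over all autosomes. Chromosome 13 thus held fewer windows of the first and last kind than the autosomes together and about as many of the LY19WT kind.

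The stretches with the largest single-window difference in favour of LY19WT were named. From 36900001 to 37500000 LY19Y646F covered 9.40% with 9 islands and LY19WT 87.4% with 16. From 39700001 to 40200000 the lines covered 2.36% and 94.9%, and from 37700001 to 39600000, the longest such run on the chromosome at 1.9 Mb, 1.49% and 79.2%. The LY19WT islands of that run numbered 78 and the LY19Y646F islands 7, the widest of them 144.6 kb in LY19WT and 5.6 kb in LY19Y646F. From 43700001 to 44400000 the lines covered 7.63% and 90.5%. From 107900001 to 108400000, near the telomeric end, LY19Y646F had no island and LY19WT covered 80.04% with 25 islands. LY19WT input over the islands of these 5 runs stood between 1.33 and 1.46 times its autosomal median. That is within the range of its bins of 5 Mb along the chromosome, and the part of this input in the coverage was not tested.

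Stretches in favour of LY19Y646F were short. The largest difference was in the run from 44900001 to 45100000, where LY19Y646F covered 79.6% and LY19WT 11.3%. It holds the widest LY19Y646F island, 62.0 kb from 44948801 to 45010800 with 3424 reads in ChIP, 721 in input and an authors' fold of 1.81, of which LY19WT covered 25.8%. Input of LY19Y646F was raised there, with a median of 1.41 times its autosomal median over the 9 islands centred in the run, against 0.943 over 16 islands in the 500 kb before it and 0.956 over 24 islands in the 500 kb after it. The part of this local input in the width of the island was not tested. From 30600001 to 30700000 LY19Y646F covered 80% with 10 islands and LY19WT 11.4% with 1. From 28900001 to 29000000 LY19Y646F covered 67.4%, from 110400001 to 110500000 it covered 56.6%, and LY19WT had no island in either. From 46300001 to 46400000 the lines covered 62.6% and 8.40%. Input of LY19Y646F over the islands of these last 4 runs stood between 0.966 and 1.10 times its autosomal median.

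Domains of both lines formed 13 runs of windows, of which the 5 longest were named. From 110800001 to 111100000 LY19Y646F covered 82.1% with 20 islands and LY19WT 80.7% with 16. From 27300001 to 27600000 the lines covered 70.7% and 85.3%, and from 98800001 to 99100000 they covered 63.9% and 67.1%. From 31500001 to 31700000 coverage was 65.3% in LY19Y646F and 89.1% in LY19WT, and from 52400001 to 52600000 it was 70.7% and 83.4%. The same stretches were cut into more pieces in LY19Y646F, with 22 against 15 islands from 27300001 and again from 98800001, 18 against 8 from 31500001 and 16 against 7 from 52400001. These runs overlapped 3 of the 5 widest LY19Y646F islands. An island of 45.2 kb from 111061401 to 111106600 had 2281 ChIP and 383 input reads in LY19Y646F, and LY19WT covered 97.3% of it. One of 37.2 kb from 27472601 to 27509800 had a fold of 2.23 in LY19Y646F and was covered to 91.4% in LY19WT, and one of 35.8 kb from 99047201 to 99083000 lay wholly within a LY19WT island of 60.2 kb. The fifth, 34.2 kb from 31378001 to 31412200, lay outside the shared runs, and LY19WT islands covered 10.5% of it.

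Island by island, the lists overlapped less on chromosome 13 than on the other autosomes. Of the LY19Y646F islands, 551 of 1193 (46.2%, exact binomial 95% interval 43.3 to 49.1) overlapped a LY19WT island by at least 1 bp, against 56.9% on the other autosomes. Of the LY19WT islands, 408 of 1234 (33.1%, 30.4 to 35.8) overlapped a LY19Y646F island, against 39.5%. The shared length was 3.39 Mb, which made up 41.1% of the LY19Y646F and 22.6% of the LY19WT length. The Jaccard index, which divides shared length by the union of both lists, was 0.171 and ranked 19 of 22 autosomes, whose median without chromosome 13 was 0.239. Chromosome 13 ranked 19 by coverage in each line as well, and overlap depends on coverage, for which these values were not adjusted. Intervals cover counting error over islands of 1 list each, and neighbouring islands are not independent.

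Overlapping islands were wider and stronger than the rest in each line. The 551 such LY19Y646F islands had a median fold of 1.92 and a median of 6.0 kb in width, and the 642 that stood alone had 1.81 and 5.2 kb. The 408 such LY19WT islands had a median fold of 1.80 and 9.7 kb in width, and the 826 that stood alone had 1.66 and 6.4 kb. An overlap by 1 bp favours wide islands, and the other autosomes had the same order. Median widths there were 6.4 against 5.4 kb in LY19Y646F and 7.6 against 5.0 kb in LY19WT, and median folds 1.93 against 1.86 and 2.38 against 2.24. Islands of 1 line alone lay farther from the other list than over all autosomes, a distance that also depends on how sparse that list is. The nearest LY19WT island was a median of 90.2 kb away from a LY19Y646F island without overlap, against 51.6 kb over all autosomes, and beyond 100 kb for 313 of them (48.8%), against 39%. The nearest LY19Y646F island was a median of 165.8 kb away from a LY19WT island without overlap, against 82.4 kb, and beyond 100 kb for 474 (57.4%), against 46.6%. At most 10 kb separated 141 (21.96%) of these LY19Y646F islands and 119 (14.4%) of these LY19WT islands from the other list, against 24.9% and 19.1% over all autosomes.

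Input of LY19WT was raised along the whole of the chromosome where islands allowed a reading. The median input density over islands was 8.33 reads per kb in LY19Y646F and 11.8 in LY19WT, or 0.990 and 1.41 times that of the other autosomes of the line. The LY19WT value was the highest of its 22 autosomes, and the next was 1.14, while that of LY19Y646F ranked 9. Among bins of 5 Mb with at least 5 islands, none of 13 LY19Y646F bins and all 16 LY19WT bins reached 1.2 times the autosomal median of the line, against 6.05% and 12.1% of such bins over all autosomes. The LY19Y646F bins ran from 0.801 (105 to 110 Mb, 19 islands) to 1.08 (45 to 50 Mb), and the LY19WT bins from 1.29 (60 to 65 Mb, 30 islands) to 1.58 (100 to 105 Mb, 13 islands). No boundary was seen in LY19WT among bins with islands. A step inside a stretch without islands could not be seen, and 12 of 49 bins of 2 Mb held no LY19WT island. From 20 to 25 Mb, where its islands begin, the ratio was 1.40, and from 110 to 115 Mb, where they end, it was 1.48. In bins of 2 Mb, 32 of 33 reached 1.2, and the exception was 70 to 72 Mb at 1.19 over 37 islands.

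The rise was spread over most LY19WT islands. At least 1.3 times the autosomal median was reached by 50 of 1193 LY19Y646F islands (4.19%) and by 885 of 1234 LY19WT islands (71.7%). Over all autosomes 7.4% of LY19Y646F and 11.4% of LY19WT islands reached it. The middle 50% of islands lay between 0.879 and 1.12 times in LY19Y646F and between 1.28 and 1.52 times in LY19WT. A single island rests on few input reads, a median of 47 in LY19Y646F (Poisson 95% interval of that count 34.5 to 62.5) and 87 in LY19WT (69.7 to 107). Medians over bins and over the chromosome are therefore firmer than the input of 1 island. Input over islands was read from places chosen for ChIP enrichment over that same input, so it does not sample the chromosome evenly.

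**Figure D4:**
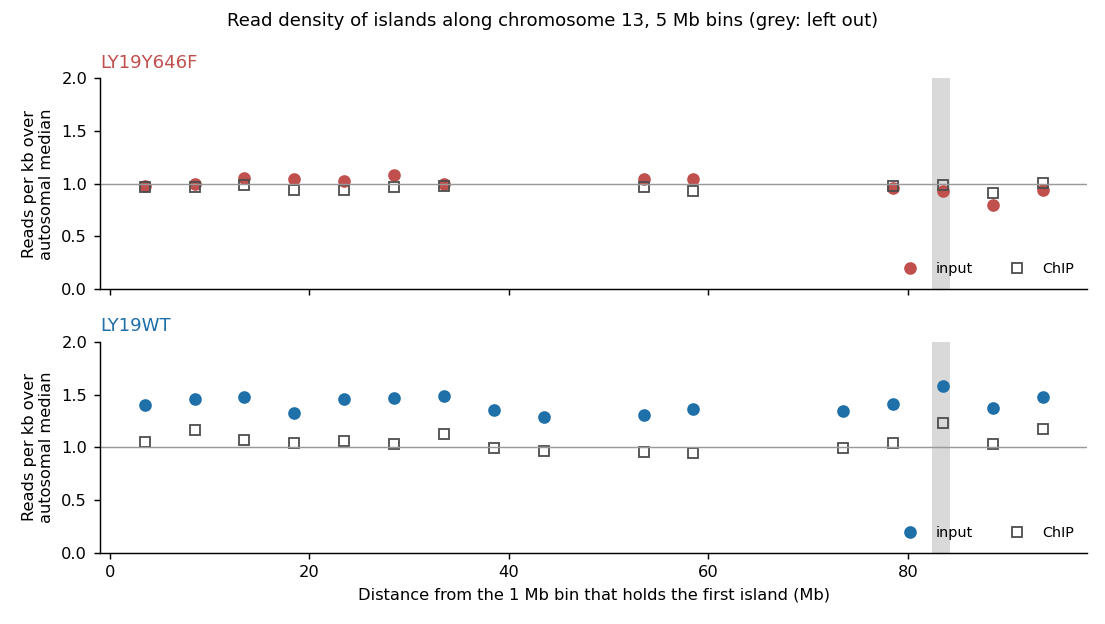
Median reads per kb of islands in bins of 5 Mb that held 5 or more islands, divided by the median over autosomal islands (vertical axis), for input (filled circles) and ChIP (open squares) along chromosome 13 (Mb from the bin of the first island, horizontal axis), with LY19Y646F above, LY19WT below and the left-out part in grey. LY19Y646F input stays between 0.801 and 1.08, and LY19WT input between 1.29 and 1.58 with ChIP between 0.947 and 1.23.

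Raw ChIP density of LY19WT islands did not rise with input to the same degree. Its median was 40.7 reads per kb in LY19Y646F and 59.9 in LY19WT, or 0.974 and 1.04 times that of the other autosomes of the line. The LY19WT value still ranked 2 of 22 autosomes, in a narrow range where the others lay between 0.951 and 1.05. That of LY19Y646F ranked 19. The authors' fold, the ratio of ChIP to input after division by a constant per list, has the raised input in its denominator. Its median on chromosome 13 was 1.86 in LY19Y646F and 1.69 in LY19WT, against 1.90 and 2.29 on the other autosomes together. The LY19WT value was the lowest of 22 autosomes, and the others ran from 2.12 to 2.41. In width classes of LY19WT, fold and ChIP density increased together while relative input lay between 1.33 and 1.46, with values from a fold of 1.59 and 54.4 ChIP reads per kb in islands of up to 5 kb to 2.60 and 95.5 in those above 100 kb. In LY19Y646F the 4 classes up to 50 kb had folds of 1.80 to 2.01 and 39.7 to 43.5 ChIP reads per kb.

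**Figure D5:**
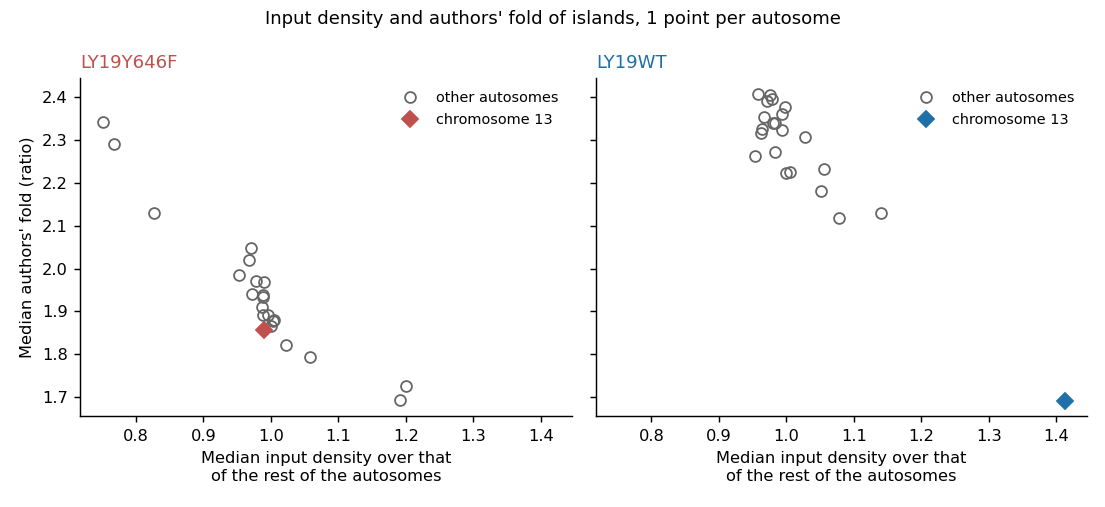
Median authors' fold (ratio, vertical axis) against median input density relative to the rest of the autosomes (horizontal axis), 1 point per autosome, with LY19Y646F left and LY19WT right and chromosome 13 as the filled diamond. In LY19Y646F chromosome 13 lies among the others at 0.990 and 1.86, and in LY19WT it lies apart at 1.41 and 1.69.

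Densities were set side by side at closely matched islands of both lines. Their values restate the input by which the chromosome was chosen and are given as a description. There were 171 pairs on chromosome 13 that overlapped by at least 50% of both islands. Median input over these pairs was 8.33 reads per kb in LY19Y646F and 12.5 in LY19WT, and median ChIP density was 41.8 and 67.2. The median ratio of LY19Y646F to LY19WT over pairs was 0.669 for input and 0.628 for ChIP density, against 0.958 and 0.682 over 8195 pairs of the other autosomes. The input ratio was thus 0.698 times that elsewhere, and the ChIP ratio 0.922 times. The median log2 ratio of fold, LY19Y646F over LY19WT, was 0.12 on chromosome 13 and -0.28 elsewhere, and fold was lower in LY19Y646F in 38.01% of pairs on chromosome 13 and in 73.5% elsewhere. For pairs that overlapped by at least 80% the chromosome 13 value was 0.01. For raw ChIP reads per kb, which are not scaled between the lines, it was -0.67, against -0.55 elsewhere.

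The strongest matched pairs lay towards the telomere. The first by the geometric mean of both folds ran from 97769601 to 97780200 in LY19Y646F, with a fold of 2.13 and 44.2 ChIP reads per kb, and from 97762601 to 97780400 in LY19WT, with 3.13 and 114. The others of the first 5 had the higher fold in LY19Y646F. The fifth, from 112762801 to 112775800 in LY19Y646F and from 112762801 to 112771800 in LY19WT, had folds of 3.08 and 1.93 and input densities of 5.23 and 10.4 reads per kb. The highest folds of single islands rested on few input reads, with 4.73 over 10 input reads from 99265401 to 99267800 in LY19Y646F, which LY19WT covered fully, and 5.53 over 6 input reads from 79279801 to 79281400 in LY19WT, which LY19Y646F did not cover.

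Islands of LY19WT crossed both edges of the left-out part, and 1 of LY19Y646F crossed the first edge. The last island before it ended at 101234800 in LY19Y646F, 8.4 kb wide with a fold of 2.72, and at 101380400 in LY19WT, 5.8 kb wide with a fold of 1.43. The first island inside it started at 101399401 in LY19Y646F, 4.2 kb wide with a fold of 1.59, and at 101381401 in LY19WT, 31.4 kb wide with a fold of 2.13. The last inside was 6.2 kb wide in LY19Y646F with a fold of 1.94 and 29.0 kb wide in LY19WT with a fold of 2.08. The first after it was 13.4 kb wide in LY19Y646F, starting at 103217601 with a fold of 1.73, and 22.4 kb wide in LY19WT, starting at 103210601 with a fold of 2.69.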

How the data were processed

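The authors deposited 1 island list per line. Per the labels, the replicates of a line were merged and its islands were called against its input with SICER at an FDR of 0.001. The tools named in the submitters' processing notes are SICER, bedtools, SAMtools 1.3.1 and Bowtie2 2.2.9, with hg19 as the build. Per the file headers, each island has raw ChIP and input read counts, a p-value, an FDR and a fold. The deposited fold is a linear ratio, ChIP over input counts divided by 1 constant per list, 2.62 in LY19Y646F and 3.07 in LY19WT. In 100% of the 47275 LY19Y646F and 54354 LY19WT islands checked, the p-value the authors deposited matched the Poisson probability of a higher ChIP count given the scaled input, within 0.01 on the log10 scale. Chromosome 13 islands held 340152 ChIP and 69798 input reads in LY19Y646F and 1092886 and 179003 in LY19WT. Neither files nor labels used here state the size of a library.

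Density is reads per kb of an island, relative to the median over autosomal islands of the line or over its other autosomes. Shares have exact binomial 95% intervals. Positions are 1-based. Bins take islands by their centre for counts and densities. Windows had to lie inside the span of islands and outside the left-out part. Named were the 5 widest islands of each line, the 5 runs of windows with the largest single-window difference in each direction and the 5 longest runs of both lines. Members, lists and alternatives were chosen with earlier results of these data known. Genes were to be placed only on an hg19 annotation, so that comparison was not made. The work used scipy 1.17.1, pandas 2.3.3 and numpy 2.4.6 under Python 3.11.15, and the steps were tested on simulated data.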

Additional observations from a re-analysis of the deposited data

How the results depend on the processing

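No paired analysis was possible because the replicates of each line were merged before islands were called, and for the same reason no fit without a replicate was made. The gene comparison and its alternatives were not run. Other settings gave 67 values within the limits set and 55 outside them.

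At an FDR of at most 1e-05, coverage was 8.53% in LY19Y646F and 15.5% in LY19WT, the Jaccard index 0.165 and relative LY19WT ChIP density 1.07. At 1e-10 coverage was 7.36% and 14.4%, the index 0.148, LY19Y646F islands overlapping LY19WT 40.8%, windows of both lines 1.4 Mb, and relative LY19WT input and ChIP density 1.43 and 1.10. Joining across 5 kb gave 671 LY19Y646F and 575 LY19WT islands, coverage of 9.95% and 17.5%, 31 and 80 above 50 kb, an index of 0.184, 41.2% of LY19WT islands overlapping, and 1.4 Mb of windows higher in LY19Y646F. The whole chromosome gave coverage of 8.69% and 17.3% and an index of 0.160.

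When the LY19WT islands of lowest p-value were kept until the list matched that of LY19Y646F in total length, LY19WT had 323 islands covering 9.77%. All 33 above 50 kb were among them, but a p-value order favours wide islands, which hold more reads. Their being kept is thus no test of them. The index was then 0.145, overlap 25.6% of LY19Y646F and 51.1% of LY19WT islands, and windows 1.6 Mb higher in LY19Y646F, 5.2 Mb higher in LY19WT and 1.3 Mb in both. Dividing LY19WT ChIP and input counts of chromosome 13 by 1.41 and recomputing p removed 67 islands and left coverage of 15.8%, with no other value outside the limits. This leaves the fold and the bounds of each island as they were, and can only drop islands with a p-value near the limit. It therefore cannot show what the raised input does to coverage or width.

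An overlap of 50% of the island gave 40.2% of LY19Y646F and 23.01% of LY19WT islands, and of both islands 14.3% and 13.9%. Islands above 30 kb numbered 5 and 89, and above 100 kb 0 and 7. Windows of 50 kb gave 1.85 Mb higher in LY19Y646F. Windows of 500 kb gave 0 Mb there and 0 Mb in both lines. Total reads over total length gave relative input of 0.924 and 1.35 and relative ChIP density of 0.910 and 1.08. The log2 ratio of matched islands, 0.12, was 0.44 when scaled by total ChIP reads in islands and 0.0092 for pairs at 80% overlap. For raw ChIP reads per kb it was -0.67, reversed. That measure is not scaled between the lines, and it was -0.55 over the pairs of the other autosomes. Leaving out 36 to 45 Mb as well, chosen after seeing the data, gave LY19WT coverage of 12.9%, an index of 0.202, 0 LY19Y646F and 16 LY19WT islands above 50 kb and 5.9 Mb of windows higher in LY19WT. The cause of these shifts was not tested. LY19WT input of at least 1.2 times the autosomal median was found in 97.0% of bins of 2 Mb and 100% of bins of 10 Mb. At a limit of 1.3 times, tried in bins of 5 Mb alone, the share was 93.8%. The chromosome was chosen by this input, so these shares restate that choice and do not test it.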
